A study of Mus musculus with 10 samples.

Results

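Open chromatin was described at 8 genes that make prostaglandin E2 (PGE2) or carry it across the cell membrane, Pla2g4a, Ptgs1, Ptgs2, Ptges, Ptges2, Ptges3, Slco2a1 and Abcc4, in muscle stem cells that were isolated from young or aged mice and then treated with PGE2 in culture. The 8 genes were taken from 21883 protein-coding genes of the gene table for their known roles. Accessible regions belong to a gene if their strongest summit lies inside its span or within 50 kb of it. By that rule 128 of 131656 regions of the young list and 107 of 117284 regions of the aged list belong to these genes. Nearest to the edge of the window on the inside lay the summits at 49295 bp (95.35-fold, young) and 49312 bp (71.46-fold, aged) from Ptges2. Nearest on the outside lay a young summit 50557 bp from Ptges3 (7.79-fold) and an aged one 50167 bp from Ptges2 (1.83-fold).

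PGE2 is a lipid signal made on demand. A cytosolic phospholipase A2 frees arachidonic acid from membranes, a cyclooxygenase turns it into prostaglandin H2, and a PGE synthase turns that into PGE2, which leaves the cell through a pump, acts on receptors at the surface, and is taken up again and broken down. In skeletal muscle PGE2 is known as a signal of injury that muscle stem cells, the resident precursors of new fibres, respond to.

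The assay was ATAC-seq, in which a transposase cuts DNA where chromatin is accessible and regions with many cuts are called as peaks. The 10 libraries came from C57BL/6 mice with no genetic change named. Young mice were 8 to 20 weeks old (2 vehicle and 2 PGE2 libraries) and aged mice 20 to 25 months old (3 vehicle and 3 PGE2 libraries). Cells were sorted by flow cytometry for α7-integrin and CD34 and kept for 2 h in medium with serum and bFGF, with PGE2 in DMSO or with 0.1% DMSO alone. The values are 2 peak lists, young PGE2 and aged PGE2. Vehicle libraries are not analysed here, so nothing below measures the effect of PGE2, and which libraries were pooled in each list, the number of mice and the depth per library are unknown. With 1 list per age there is no replicate error and no test of age. Each region carries a fold, which is the authors' enrichment of its summit over background and ranks regions within its own list only. In bulk data, fewer cells with an open site and less opening per cell cannot be told apart.

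The label was set beside cell type markers. All 8 muscle stem cell markers with a start in the promoter table, among them Pax7 and Myf5, had a region within 1 kb of it in both lists, as did 63.2% of all coding genes. Of 4 leukocyte markers with a start, Ptprc, Itgam and Cd3e had none in either list and Cd68 had one in both. Both endothelial markers with a start (Kdr and Tek), all 3 fibro-adipogenic markers (Pdgfra, Dpt and Col15a1) and 2 of 3 smooth muscle and pericyte markers (Kcnj8 and Acta2) also had one in both lists. Rgs5, a pericyte marker, had one in the young list only. Open starts of these markers thus do not set muscle stem cells apart from endothelial or fibro-adipogenic cells. Part of the regions below may come from other cells of the sort, which was not tested.

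Starts divided the 8 genes. Those of Ptges2, Ptges3, Slco2a1 and Abcc4 had a region within 1 kb at both ages, that of Ptgs1 had one among young regions alone, and those of Pla2g4a, Ptgs2 and Ptges had none. Of the 17491 coding genes with a start in the promoter table, 63.2% had a start region at both ages, 2.5% among young regions alone, 0.366% among aged regions alone and 33.9% at neither age. So 4 of 8 genes open at both ages and 3 of 8 at neither lie near the background shares, and nothing is read from them about the genes as a group. Regions were most numerous around Slco2a1, with 32 young and 33 aged, and Abcc4, with 31 and 20. Ptges2 had 20 and 20, Ptges3 20 and 11, Ptges 15 and 14, Ptgs1 9 and 6, Pla2g4a 1 and 3, and Ptgs2 0 and 0. The median coding gene had 9 young and 8 aged regions in its window.

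**Figure D1:**
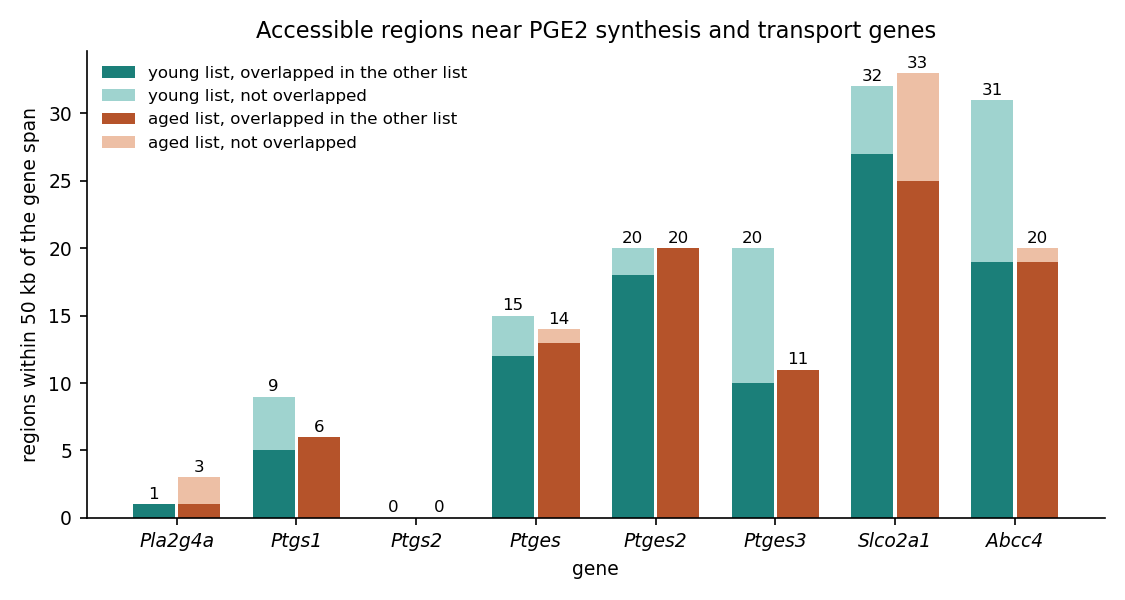
Number of accessible regions (vertical axis) with a summit within 50 kb of each of the 8 genes (horizontal axis), in the young and the aged list, with pale bars for regions not overlapped by the other list. Slco2a1 has 32 young and 33 aged regions, Ptges3 20 and 11, Abcc4 31 and 20, and Ptgs2 none in either list.

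Windows differ in length with the gene, so the counts were also set per 100 kb and ranked among all coding genes. By this density Ptges2 stood at percentile 92.8 (young) and 94.5 (aged) of the genes, and Slco2a1 at 89.5 and 92.9. Ptges3 stood at 89.4 and 68.6, Ptges at 68.9 and 71.6, Abcc4 at 63.4 and 51.6, and Ptgs1 at 45.5 and 39.4. Pla2g4a, at 15.0 and 21.2, and Ptgs2, at 7.3 and 7.88, were at the sparse end in both lists.

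Of the 128 young regions 36 had no overlap of at least 1 bp with an aged region, and these are called young-only below. That is 28.1% (exact Clopper-Pearson 95% interval 20.5 to 36.8, counting error over regions alone), beside 28.5% of all 112000 young regions within 50 kb of a coding gene. Of the 107 aged regions 12 were aged-only, or 11.2% (5.93 to 18.8), beside 9.84% of 99016. Slco2a1 alone held 8 of these 12, and without it the aged-only share was 5.41%. The genes together therefore stood at the background in both lists.

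Regions found at one age were weak and narrow. Their median fold was 2.55 among young-only and 2.57 among aged-only regions, beside 7.0 and 6.73 for regions that the other list overlapped. Their median width was 192.5 and 200.5 bp, beside 596.5 and 537 bp. None of the 36 young and 33 aged regions of at least 10-fold was found at one age only. The strongest young-only region reached 5.59-fold, at the start of Ptgs1, and the strongest aged-only region 3.03-fold, upstream of Slco2a1. The same split held over all regions near coding genes, where the median fold was 7.88 for shared and 2.73 for young-only regions, and 5.05 and 2.4 in the aged list. Shared regions kept their position. The strongest summit of a young region lay a median of 19.5 bp from that of the aged region with the largest overlap. Of 92 such distances 75 (81.5%) were within 50 bp, the same share as near all coding genes.

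**Figure D2:**
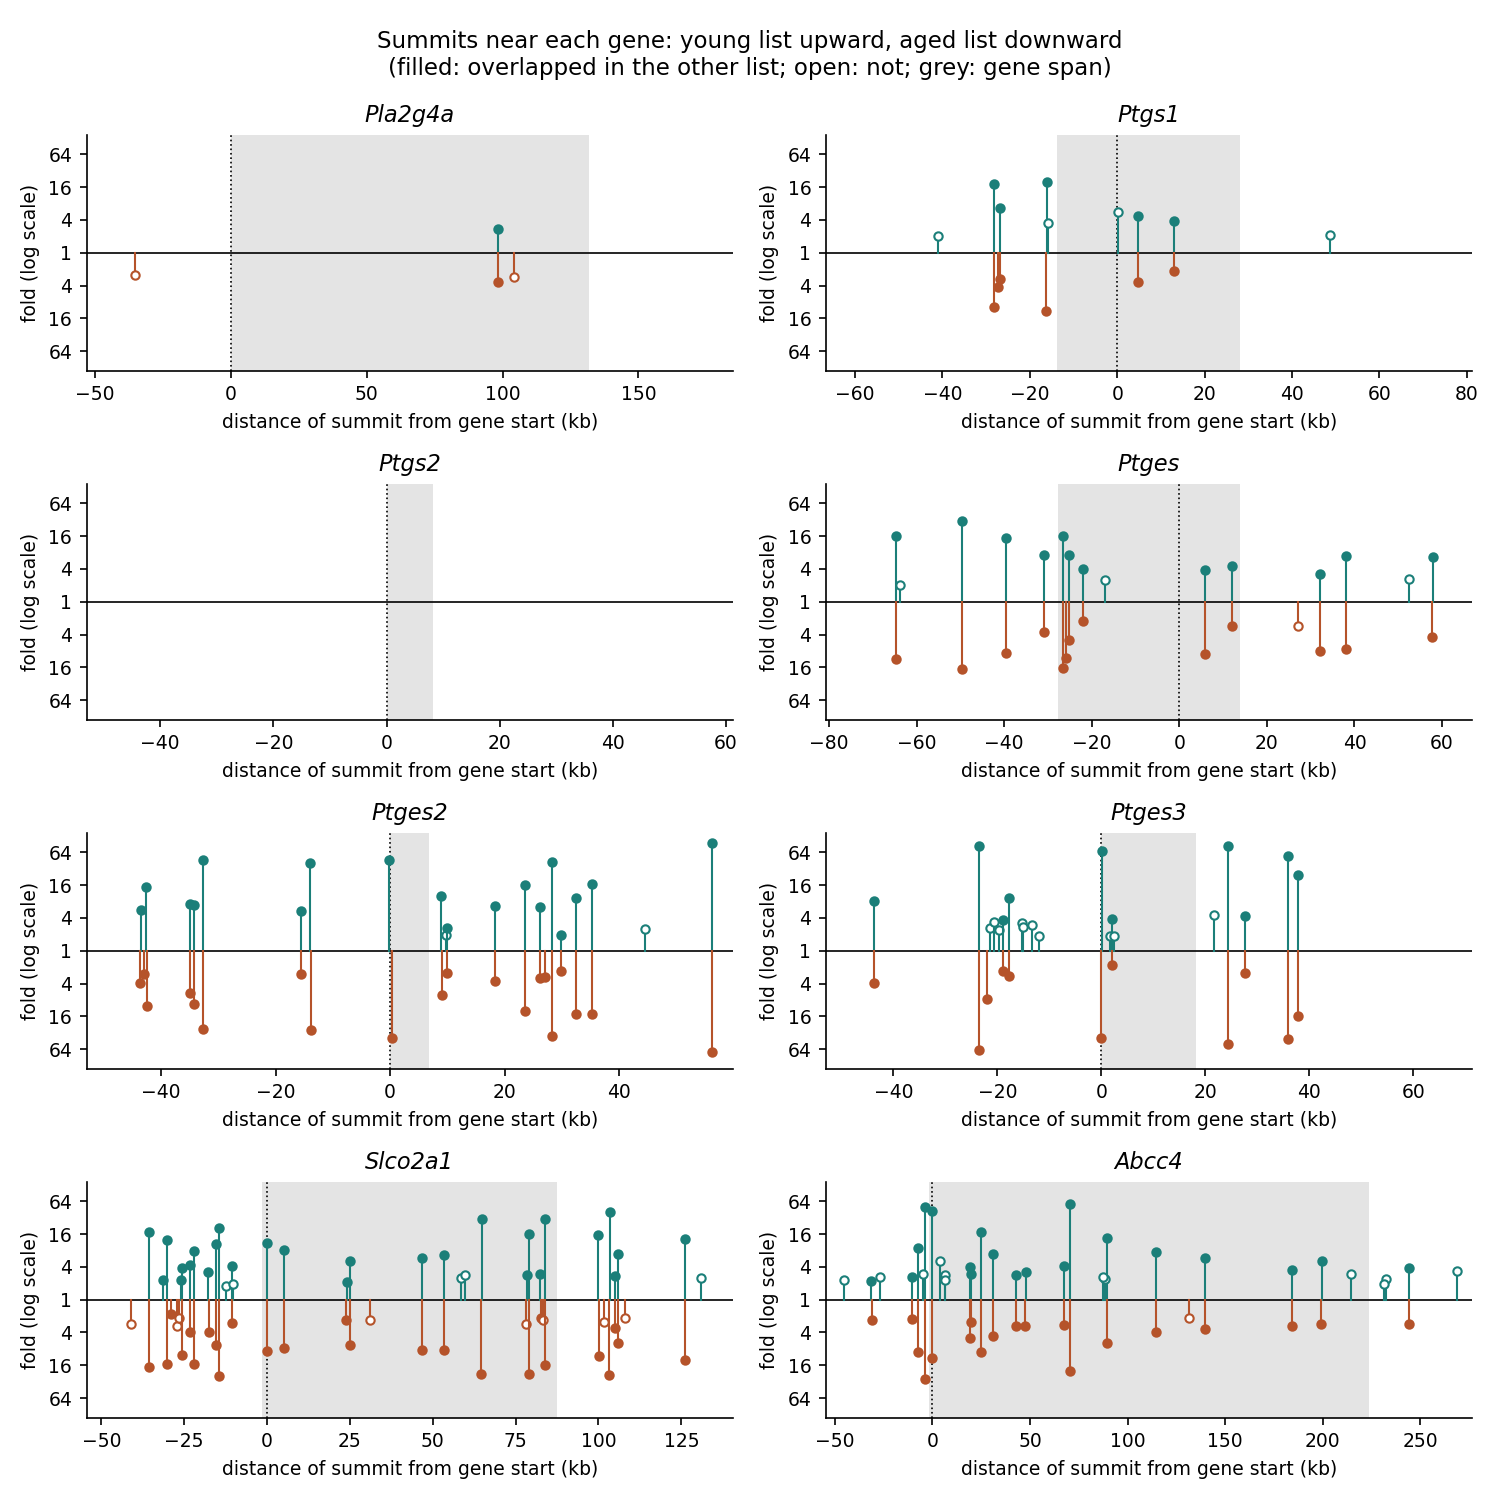
Fold of each region at its summit (vertical axis, log scale, young list upward and aged list downward) against the distance of the summit from the gene start in kb (horizontal axis, transcription to the right), with the gene span in grey. Filled points are overlapped by the other list and open points are not. Strong regions pair across the axis, open points stay low, and the panel of Ptgs2 is empty.

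Pla2g4a encodes cytosolic phospholipase A2 alpha, which releases arachidonic acid from membranes in response to calcium. Its span of 131673 bp on chromosome 1 held only weak regions. The young list had 1, at chr1:149862793-149863096, 2.77-fold, and the aged list had the same one at 3.41-fold. The aged list added 2 aged-only regions, inside the gene at chr1:149856778-149857107 (2.84-fold) and upstream at chr1:149996478-149996733 (2.59-fold). Near all coding genes 9.84% of aged regions were aged-only. The first annotated start lay 98194 bp from the nearest young region and 35188 bp from the nearest aged one. Windows with at most 1 young and 3 aged regions made up 17.9% of all coding genes. Of coding genes with any region, 22.5% had more aged than young ones, as did Pla2g4a and Slco2a1 here.

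Cyclooxygenases catalyse the committed step. Ptgs2, the inducible cyclooxygenase that injury and growth factors switch on, had no region within 50 kb in either list, as did 14% of coding genes. It sits on the + strand of chromosome 1 at 150100031 to 150108234, inside a stretch without any region of 528807 bp for young cells (chr1:149863097-150391903) and of 201783 bp for aged cells (chr1:149996734-150198516). Of 128790 autosomal gaps between neighbouring young regions 469 (0.364%) were as long, and of 114651 aged gaps 1568 (1.37%), where the median gap was 3992 and 3888 bp. These are shares of gaps and not of genes. A long gap covers more sequence than a short one, and the share of genes inside gaps as long was not counted. The nearest aged regions lay 103297 bp below and 90282 bp above the gene, and the nearest young ones 236934 bp below and 283669 bp above. A region that did not pass the caller's threshold is not listed, so accessibility of Ptgs2 was not detectable in these lists and is not shown to be absent.

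The promoter of Ptgs2 is shown because no region lies at it although starts of its CpG content mostly have one. It is given 5′ to 3′ on the + strand at chr1:150099781-150100030 (RefSeq, GRCm38.p6), the 250 bases before the start, with a GC box in capitals.
Ptgs2 promoter: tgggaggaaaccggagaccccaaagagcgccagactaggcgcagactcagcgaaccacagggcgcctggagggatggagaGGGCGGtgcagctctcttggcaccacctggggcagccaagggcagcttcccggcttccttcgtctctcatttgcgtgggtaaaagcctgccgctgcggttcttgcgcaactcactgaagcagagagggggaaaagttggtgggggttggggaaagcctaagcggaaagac
The start is the RefSeq one, and where transcription begins in these cells was not measured. Just after the RefSeq start lay an overlapping pair of motifs, capitalised here in 23 bases at chr1:150100037-150100059. They were a CRE core (TGACG, read on the opposite strand, bases 14 to 18) and an E-box (CACGTG, bases 17 to 22).
Ptgs2 start site: accactaCGTCACGTGgagtccg
In the 300 bases around the start (250 before and 50 after) Ptgs2 had 16 CpG dinucleotides. Of the 9518 annotated starts with at least 16, 96.8% had a young and 95.1% an aged region within 1 kb, and 303 (3.18%), Ptgs2 among them, had neither. CRE cores and E-boxes occurred in 23.6% and 7.84% of all 21262 starts of the table, so either motif alone is common.

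**Figure D3:**
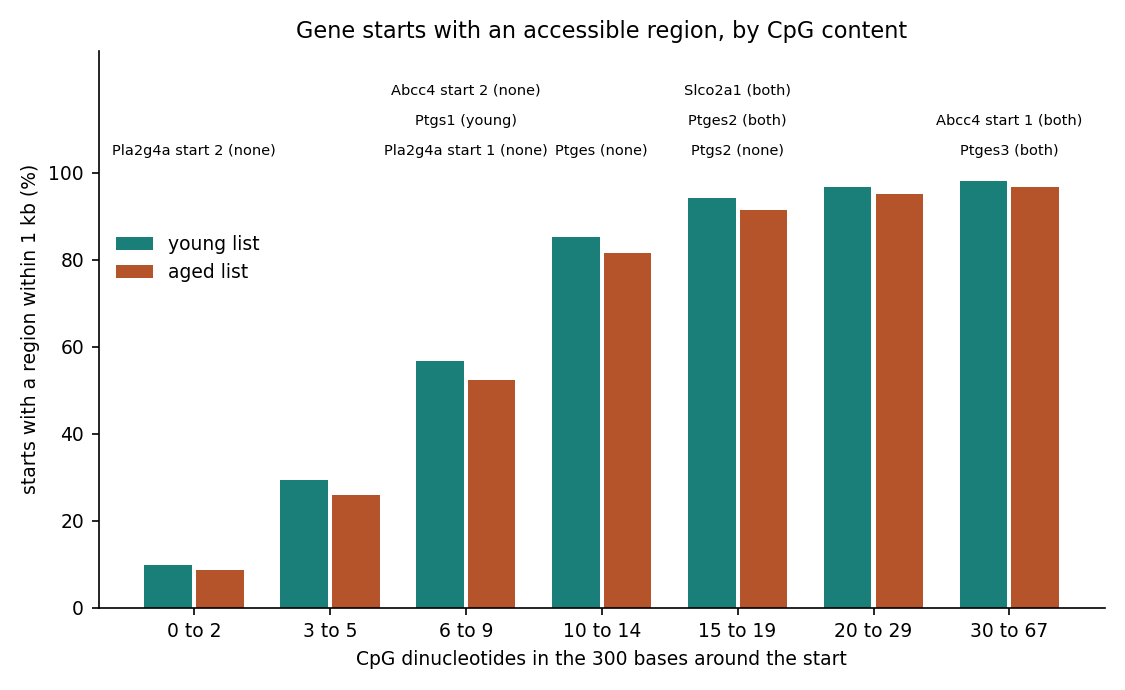
Share of annotated gene starts with an accessible region within 1 kb (vertical axis, percent) by the number of CpG dinucleotides in the 300 bases around the start (horizontal axis), in the young and the aged list, with the starts of the 8 genes written above their bin. The share rises from 9.89% (young) and 8.64% (aged) at 0 to 2 CpG to 98.0% and 96.8% at 30 to 67, and Ptgs2 has no region in a bin at 94.2% and 91.5%.

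Ptgs1 encodes the constitutive cyclooxygenase. Its start was the only one of the 8 genes' starts found at a single age, with a young-only region at chr2:36230276-36230821, 546 bp wide, 5.59-fold, summit at +105 bp. The region was at percentile 54.7 of the young list, ranked by the deposited −log10 q-value. Among young start regions alone it was at percentile 7.99. Of the 438 genes with a young-only start region 37 (8.45%) had one at least as strong, and their median was 3.04-fold. When each list was reduced to its strongest 58642 regions, the Ptgs1 start had a region in neither. With the ends of the gene span taken as starts in place of the annotated one, which lies inside the span, Ptgs1 had none in either list as well. Of 9 young Ptgs1 regions 4 were young-only and of 6 aged ones none was aged-only, beside 28.5% and 9.84% near all coding genes. Apart from the start, the young-only ones reached 3.48-, 2.16- and 2.07-fold. Upstream, a region with its summit at -28179 bp (18.4-fold, 1446 bp wide) had an aged partner at -28177 bp (9.9-fold), and the strongest of the window, at -16185 bp (19.85-fold), had one at -16199 bp (11.92-fold). Inside the gene, regions at +4688 and +13050 bp (4.75- and 3.87-fold) had aged partners at +4645 and +13030 bp (3.41- and 2.16-fold). In both lists the upstream pair outranked everything at or inside Ptgs1. The farther of the pair, at -28179 bp (young) and -28177 bp (aged), had another coding gene as its nearest. The other, at -16185 and -16199 bp, had Ptgs1.

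The Ptgs1 promoter is shown as the start seen at one age, on the + strand at chr2:36230176-36230425 (RefSeq, GRCm38.p6). It has no capitals, since its 300 bases held none of the 7 motifs searched.
Ptgs1 promoter: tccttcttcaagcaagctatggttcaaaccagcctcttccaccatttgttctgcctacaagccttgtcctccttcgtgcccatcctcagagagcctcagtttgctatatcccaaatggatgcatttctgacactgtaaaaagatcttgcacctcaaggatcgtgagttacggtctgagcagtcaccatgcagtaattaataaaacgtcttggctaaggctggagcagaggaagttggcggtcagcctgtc
It had 6 CpG in 300 bases, and 56.7% of starts with 6 to 9 CpG had a young region and 52.3% an aged one.

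The 3 PGE synthases differ in their place in the cell and in their chromatin. Ptges encodes microsomal PGE synthase 1, the inducible enzyme coupled to Ptgs2. Its annotated start, on the - strand of chromosome 2 at 30903297, had no region within 1 kb in either list, with 10 CpG and a pair of GC boxes 53 and 42 bases before the start. Of 12066 starts with at least 10 CpG, 646 (5.35%) had neither, but most of these starts are denser in CpG than that of Ptges. Of starts with 10 to 14 CpG, 85.1% had a young region and 81.6% an aged one. Accessibility lay around the upstream end of the span, where the young region chr2:30928919-30930167 reached 16.11-fold with its summit at -26611 bp, and the aged region chr2:30929475-30930238 reached 16.1-fold at -26613 bp. If either end of the span is counted as a start, Ptges is open in both lists. A further region lay beyond the span at -39561 bp (14.75-fold, young) and -39586 bp (8.6-fold, aged). The strongest of the window lay at the end of the neighbour Tor1b (29.93-fold young, 17.2-fold aged). Inside the gene, the region at +5900 bp (3.74-fold) had an aged partner at +5887 bp (9.03-fold). Of its regions 3 of 15 young and 1 of 14 aged were found at one age, none above 2.84-fold, beside background shares of 28.5% and 9.84%.

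Ptges2 encodes the membrane-associated PGE synthase 2. Its start region, chr2:32394998-32396967 in the young list and chr2:32394878-32397042 in the aged list, reached 46.18- and 40.37-fold. It ranked at percentile 93.2 (young) and 94.5 (aged) of its list, and at 49.9 and 64.0 among start regions alone. The strongest summit lay at -273 bp (young) and at +286 bp (aged), on opposite sides of the start within one wide region of 5 and 7 summits. The window is crowded with other genes: the strongest region, 95.35-fold young and 71.46-fold aged, lay at the ends of Naif1 and Slc25a25, and 7 regions in each list lay inside Slc25a25. Of 20 regions in each list, 2 were young-only, at 2.55-fold or less, and none aged-only, beside background shares of 28.5% and 9.84%.

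Ptges3 encodes a cytosolic PGE synthase that is also the HSP90 co-chaperone p23, which most cells express. Its start had the strongest young start region of the 8 genes, chr10:128057912-128060260, at 67.83-fold (percentile 68.2 among start regions). The aged one, chr10:128058149-128060001, reached 40.08-fold (63.6). The promoter is shown as the most CpG-dense of the 8 genes' starts, with 46 CpG in 300 bases, on the + strand at chr10:128058732-128058981 (RefSeq, GRCm38.p6), with GC boxes in capitals.
Ptges3 promoter: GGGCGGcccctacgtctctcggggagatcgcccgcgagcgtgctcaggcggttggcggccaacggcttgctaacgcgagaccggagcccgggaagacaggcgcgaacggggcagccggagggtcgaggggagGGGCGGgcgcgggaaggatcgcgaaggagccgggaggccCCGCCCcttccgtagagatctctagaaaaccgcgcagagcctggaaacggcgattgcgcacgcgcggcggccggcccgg
A CRE core followed at bases 12 to 16 after the start.

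Ptges3 had 10 young-only regions of 20 and no aged-only region of 11, beside 28.5% and 9.84% near all coding genes. Of the coding genes with at least 10 young-only regions, a minimum set after the values were seen, 32.2% had no aged-only region. Of the 10, 7 lay inside the neighbour Naca, which encodes a ribosome-associated chaperone subunit, at 1.85- to 3.35-fold, 2 inside Ptges3 (1.85- and 1.89-fold) and 1 at chr10:128080624-128080855 (4.45-fold). Only 4 of the 20 young regions had Ptges3 as their nearest gene, and 2 of these were young-only. In the aged list 2 of 11 did, and both were shared. The strongest regions of the window lay at the ends of Atp5b (83.46-fold, young) and of Naca (64.97-fold, aged). With each list reduced to its strongest 58642 regions, 2 young-only regions were left.

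Transport is served by an importer and a pump. Slco2a1 encodes the prostaglandin transporter that takes PGE2 up from outside the cell. Its start region was the weakest of those open in both lists, 11-fold in young cells (chr9:103007643-103008978, summit at -4 bp) and 8.75-fold in aged cells (chr9:103007648-103008971, summit at -14 bp), at percentile 15.0 and 15.9 among start regions. The promoter is shown as the only main start of the 8 genes with a TATA box (TATAAA, 29 bases before the start), on the + strand at chr9:103008237-103008486 (RefSeq, GRCm38.p6), with that box and a GC box in capitals.
Slco2a1 promoter: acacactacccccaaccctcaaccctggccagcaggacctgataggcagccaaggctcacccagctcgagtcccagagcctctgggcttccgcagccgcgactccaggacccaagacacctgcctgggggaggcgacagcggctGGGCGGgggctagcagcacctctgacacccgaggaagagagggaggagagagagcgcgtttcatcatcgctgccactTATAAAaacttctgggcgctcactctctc
A TATA box stood in 12.6% of all starts.

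Stronger regions lay away from the Slco2a1 start. Upstream, the region at -14470 bp (young, 20.73-fold) and -14472 bp (aged, 25.52-fold) was the strongest of the aged window. A series of 10 further young regions overlapped by the aged list reached from -10565 to -35608 bp, where the farthest was 17.3-fold young and 17.25-fold aged. Inside the gene, young regions at +64846 bp (30.81-fold) and +83868 bp (30.51-fold) led, with aged regions at 22.68- and 16.0-fold in the same places, and the aged list was led there by +79181 bp (22.97-fold, beside 16.24-fold in the young list). The strongest young region of the window lay at the end of Rab6b (39.75-fold young, 24.22-fold aged). Of the 8 genes, Slco2a1 and Pla2g4a were the ones with more aged-only than young-only regions, at 8 to 5 for Slco2a1. That is 8 of 33 aged and 5 of 32 young regions, beside 9.84% and 28.5% near all coding genes. Of coding genes with at least 13 one-age regions, a minimum also set after the values were seen, 11.5% had more aged-only than young-only. The aged-only regions lay at 2.16- to 3.03-fold and the young-only ones at 2.82-fold or less. The excess turned with a window of 100 kb, with 8 aged-only and 10 young-only regions, and was even with 10 kb, at 3 and 3.

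Abcc4 encodes multidrug resistance protein 4, a pump that exports PGE2. It has the longest span, 225165 bp on the - strand of chromosome 14. Its first start had a region in both lists, chr14:118705444-118706987 for young cells (42.74-fold) and chr14:118705613-118706881 for aged cells (11.82-fold). The young one ranked at percentile 46.5 among young start regions and the aged one at 21.0 among aged start regions. The second annotated start, at 118676931, had none. The first promoter is shown because its start region ranks differently in the lists, 5′ to 3′ on the - strand at chr14:118706220-118706469 (RefSeq, GRCm38.p6), with an E-box and GC boxes in capitals.
Abcc4 promoter: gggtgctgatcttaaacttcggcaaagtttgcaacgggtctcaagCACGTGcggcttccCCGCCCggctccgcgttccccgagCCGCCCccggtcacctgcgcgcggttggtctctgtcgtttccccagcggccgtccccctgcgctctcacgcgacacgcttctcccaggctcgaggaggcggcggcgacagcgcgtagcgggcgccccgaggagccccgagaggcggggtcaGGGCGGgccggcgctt
It had 41 CpG in 300 bases, more than any other of the 8 genes' starts but that of Ptges3.

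The order of the strongest Abcc4 regions differed between the lists. In the young list a region inside the gene led (chr14:118634933-118636359, summit at +70611 bp, 57.71-fold), before an upstream one (chr14:118709370-118710329, at -3653 bp, 50.4-fold) and the start. In the aged list the upstream region led (chr14:118709536-118710220, at -3665 bp, 28.93-fold), before that inside the gene (20.04-fold) and the start. Abcc4 had 12 young-only regions of 31 and 1 aged-only region of 20 (2.21-fold), beside 28.5% and 9.84% near all coding genes. Of coding genes with at least 13 one-age regions, 35.2% had at least 12 young-only to each aged-only region. The strongest young-only region of Abcc4, chr14:118702291-118702540, reached 5.06-fold, and the other 11 lay at 3.3-fold or less. With each list reduced to its strongest 58642 regions, 2 young-only and 1 aged-only region were left. Of the 12 young-only regions 11 had Abcc4 as their nearest gene.

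**Figure D4:**
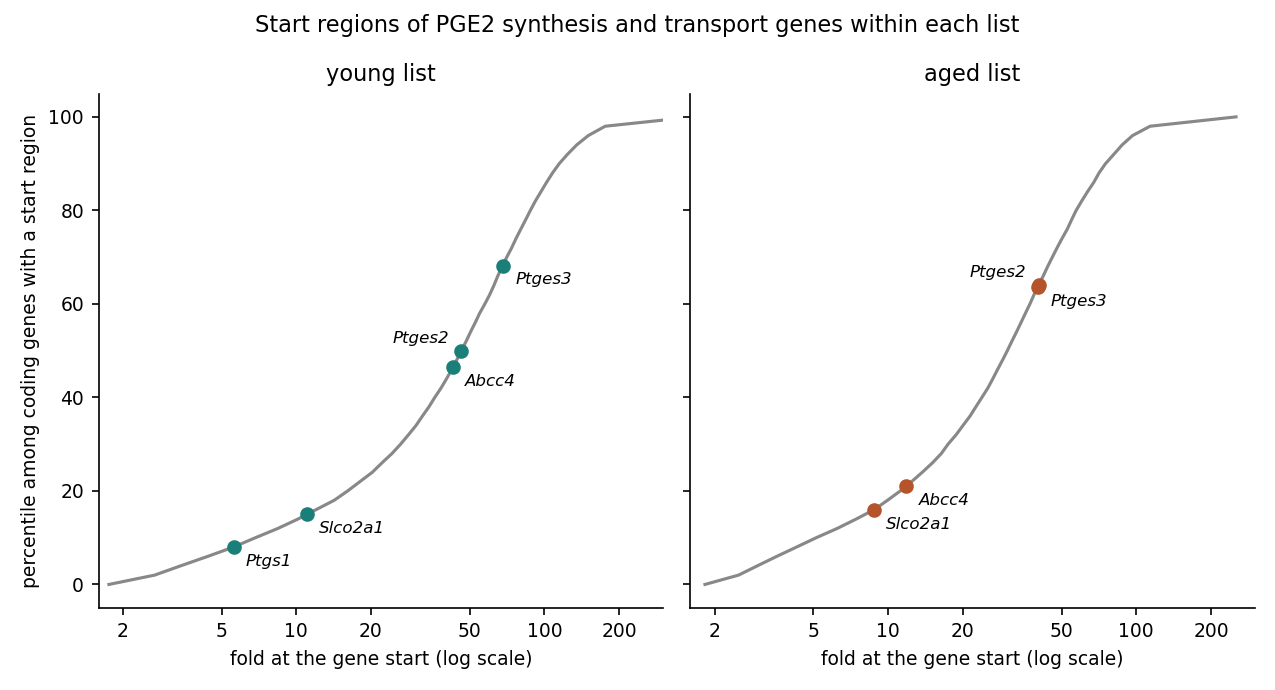
Percentile of a start region among the start regions of all coding genes of its own list (vertical axis) against its fold (horizontal axis, log scale), as a grey line, with the start regions of these genes as points, in the young and the aged list. Ptges3 and Ptges2 stand near or above the middle in both lists, Slco2a1 near 15 in both, Abcc4 at 46.5 in the young and 21.0 in the aged list, and Ptgs1 at 7.99 in the young list only.

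Motifs were searched by their letters on both strands of the 300 bases: CRE (TGACGTCA, 2.23% of all starts), CRE core (TGACG, 23.6%, contained in the CRE), E-box (CACGTG, 7.84%), CCAAT box (CCAAT, 38.2%), TATA box (TATAAA, 12.6%), AP-1 site (TGANTCA, 6.99%) and GC box (GGGCGG, 46.2%). None of the 8 genes' starts held a full CRE or an AP-1 site. GC boxes stood at Ptgs2, Ptges, Ptges3, Slco2a1 and Abcc4, E-boxes at Ptgs2, Ptges2 and Abcc4, and CRE cores at Ptgs2 and Ptges3. Starts with and without a region shared these motifs, and a match or its lack says nothing about binding.

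Around the 8 genes stand other genes of the eicosanoid pathway, of which 66 were found in the gene table and 52 had a start in the promoter table. Of the 52, 35 (67.3%) had a start region at both ages, 4 among young regions alone, none among aged regions alone and 13 at neither age, beside the background shares given above. Among phospholipases and genes that handle arachidonate, 15 of 21 were open in both, led by Plaa, a phospholipase activator (108.95-fold young, 68.09-fold aged), and Elovl5, a fatty acid elongase (85.75- and 64.54-fold). Pla2g4e, a relative of Pla2g4a, was open in young cells alone, at 2.2-fold. The annexins Anxa2 (31.12- and 22.68-fold) and Anxa1 (26.63- and 27.2-fold), long described as inhibitors of phospholipase A2, were open in both lists.

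Of 5 other prostanoid synthases 3 were open in both, led by Prxl2b (40.76- and 30.9-fold) and Cbr1 (15.45- and 8.94-fold), and Hpgds and Tbxas1 in neither. In the lipoxygenase branch, which makes leukotrienes from the same arachidonate, 3 of 4 were open in both, led by Lta4h (144.52- and 91.78-fold) and Ltc4s (53.22- and 37.58-fold), and Alox5 was open in the young list only (3.52-fold). Receptors ranged widest. The start of Ptger4, the EP4 receptor of PGE2, reached 184.31-fold at percentile 99.8 of the young list and 124.75-fold at 99.9 of the aged list, above every start of the 8 genes. Ptgfr followed (32.88- and 20.57-fold), Ptger3 (2.91-fold) and Tbxa2r (1.98-fold) were open in the young list only, and Ptgdr and Ptgdr2 in neither.

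All 4 breakdown genes with a start were open in both lists, led by Ptgr2 (44.46- and 33.64-fold) and Cbr3 (34.38- and 14.75-fold). Hpgd, the enzyme that inactivates PGE2, had 6 young and 13 aged regions in its window, of which 1 and 8 were found at one age. Slco4a1, a transporter, had 10 young and 17 aged regions, of which 0 and 8 were. Near all coding genes 28.5% of young and 9.84% of aged regions were found at one age. Both genes were picked for these counts after the values were seen, and how many other genes show such counts was not tested. Of 8 other transporters 4 were open in both lists, led by Abcc5 (98.47- and 51.56-fold) and Slco4a1 (56.3- and 42.19-fold), and 4 in neither.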

How the data were processed

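The submitters' processing notes name Bowtie2 and the mouse build mm10 (GRCm38). The deposited peak lists, 1 per age after PGE2, follow the narrowPeak layout. Not given in the sources used here are the caller's options, read shifting, duplicate removal and pooling. Each row holds the fold ratio of its summit over background and a −log10 q-value, both deposited by the authors, and the smallest −log10 q was 2.08 (young) and 2.16 (aged). Touching or overlapping rows were merged (265507 young and 215838 aged rows), and the summit with the highest −log10 q was kept. The percentile of a region within its whole list ranks regions by that −log10 q. A list from more fragments is longer at one threshold, and depth is unknown.

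Gene spans came from a RefSeq table and starts and promoter sequences from a RefSeq promoter table, both GRCm38.p6. A start was open if a region lay within 1 kb. Shared meant an overlap of at least 1 bp. Shares carry exact Clopper-Pearson intervals at 95%. The functions were tested on simulated data (Python 3.11.15, pandas 2.3.3, scipy 1.17.1). The genes and lists were chosen with earlier results of these data known. Named were all 8 genes, with the region at the start, the strongest in the window and span, the strongest at one age, and in each pathway role the genes open at one age and the 2 strongest open in both. Other regions named were chosen after their values were seen. Other thresholds, windows, overlaps and merging rules were tried.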

Additional observations from a re-analysis of the deposited data

How the results depend on the processing

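No paired analysis was possible because the lists hold no value per library, and for the same reason no replicate could be left out. Under other settings 32 values of the region counts, one-age shares and start count stayed within the counting interval or within 1.5 times of the reported one, and 15 moved. With the strongest 58642 regions of each list, 56 young and 56 aged regions were left near the 8 genes, with 14.3% of the young ones young-only. In that setting reduced lists were matched to each other. With regions of at least 3-fold, matched against all regions of the other list, 8.14% of young and 1.37% of aged regions were found at one age. A window of 10 kb left 65 young and 51 aged regions, and counting only regions whose nearest gene is one of the 8 left 79 and 65. A reciprocal overlap of 50% put 38.3% of young and 26.2% of aged regions at one age, and summits within 100 bp gave 37.5% and 25.2%. Counting a region within 1 kb as shared gave a young-only share of 19.5%. Without Slco2a1 the aged-only share was 5.41%. The share over all regions near coding genes was not taken under these other settings. The changed shares thus have no background beside them, and nothing is read from them about the genes. Starts open in both lists numbered 4 with start windows of 500 bp and 2.5 kb, a −log10 q of at least 5 and lists of equal length, and 5 with either end of the span. The unknown depth of each list limits what a missing region shows.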
